A study of Mus musculus with 6 samples.

Results

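The transcription factors that drive endothelial-to-mesenchymal transition were followed across RNA libraries of mouse lung microvascular endothelial cells. The members are *Snai1*, *Snai2*, *Twist1*, *Twist2*, *Zeb1*, *Zeb2* and *Prrx1*. They were taken by gene name from a table of 21999 genes, 7 of 7 were in it, and all 7 were among the 13609 genes that passed the filter on low counts. Each was related to *Pecam1*, which encodes the endothelial surface protein CD31, and to *Col1a1*, a collagen gene of fibroblasts, in the same libraries. RNA came from 3 cell isolations per genotype, Ptprz1+/+ and Ptprz1-/-, the latter a germline knockout line lacking protein tyrosine phosphatase receptor zeta 1. Both groups were of the mixed strain SV129/B6 and untreated. Each isolation pooled lungs of 2 to 5 mice aged 3 to 8 weeks. The cells were grown in culture until confluent and then separated on magnetic beads against CD31, so a library describes a pool of mice and of cultured cells, not a single animal or freshly isolated tissue.

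In this transition, endothelial cells give up their junctions and take on the shape and matrix production of mesenchymal cells. It is known from the forming heart valves and from fibrotic tissue, and it is set off by TGF-beta, BMP and Notch signals. Snail and Zeb proteins are zinc-finger repressors that bind the E-box, the DNA word CANNTG, in the genes of cell junction proteins. Twist proteins bind E-boxes through a basic helix-loop-helix domain, and Prrx1 is a homeobox factor of mesenchyme. The same factors are also made by fibroblasts and other mesenchymal cells, so their RNA marks a mesenchymal programme and not its cell of origin.

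The E-box is also the word through which factors of this kind can act on each other's promoters, and the promoters of *Snai1*, *Twist1* and *Twist2* are shown for that reason. The search covered the 250 bases upstream of each RefSeq start site on GRCm38.p6, for CANNTG and for its variants CACCTG and CAGGTG, which Snail and Zeb proteins prefer. CACCTG and CAGGTG are the same word read on the 2 strands, and both are contained in CANNTG, which reads the same on either strand. Sequences are written 5′ to 3′ on the strand of the gene, and capitals mark any CANNTG.
*Snai1*, chr2:167537945-167538194, plus strand: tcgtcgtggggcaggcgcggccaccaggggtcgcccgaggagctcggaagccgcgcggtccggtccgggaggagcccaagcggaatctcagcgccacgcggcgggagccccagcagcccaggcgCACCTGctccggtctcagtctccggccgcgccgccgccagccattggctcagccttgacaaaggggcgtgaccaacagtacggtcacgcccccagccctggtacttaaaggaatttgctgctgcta
*Twist1*, chr12:33957421-33957670, plus strand: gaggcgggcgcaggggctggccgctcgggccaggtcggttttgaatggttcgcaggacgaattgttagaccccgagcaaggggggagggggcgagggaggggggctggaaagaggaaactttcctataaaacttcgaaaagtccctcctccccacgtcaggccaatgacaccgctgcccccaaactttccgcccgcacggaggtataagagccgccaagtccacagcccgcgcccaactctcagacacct
*Twist2*, chr1:91801211-91801460, plus strand: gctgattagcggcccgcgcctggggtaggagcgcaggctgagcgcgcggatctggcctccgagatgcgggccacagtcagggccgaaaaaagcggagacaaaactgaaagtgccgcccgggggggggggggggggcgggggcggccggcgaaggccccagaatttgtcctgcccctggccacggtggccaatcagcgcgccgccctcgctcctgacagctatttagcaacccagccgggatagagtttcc

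Entries existed for 5 of the 7 members, with 4 start sites for *Zeb2*. Only the *Snai1* window held the word, a CACCTG that begins at position -126 from the start site. CANNTG was found in 66.2% of the 32536 promoter windows of that length, and CACCTG or CAGGTG in 17.3%. The printed windows were rich in G and C, at 70.0% for *Snai1*, 62.4% for *Twist1* and 68.8% for *Twist2*, against a median of 52.4% over all windows. A match is a word in the sequence and not a measured binding site.

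Between 14496881 and 17709663 reads were counted on genes per library. *Ptprz1* itself was counted 197, 1837 and 508 times in the Ptprz1+/+ libraries and 1138, 1320 and 895 times in those labelled Ptprz1-/-. Its reads did not separate the genotypes, and a count per gene cannot tell its exons apart, so each direction below rests on the labels. Endothelial markers were low: *Pecam1* lay between 0.410 and 25.6 FPKM (reads scaled to gene length and library total), while *Col1a1* lay between 397.2 and 976.9 FPKM. In bulk RNA, a smaller share of a cell type and less RNA per cell cannot be told apart. Beside the members, 2 libraries stood apart, Ptprz1+/+ replicate 2 and the library labelled Ptprz1-/- replicate 1. The genotype differences, the order of the levels and the spread are given with and without them. They were chosen from the members' own values, so leaving both out tends by construction to raise the fold changes and narrow the spread. The correlations are given with and without the 2 libraries farthest from the median of 1 gene of the pair, which are not the same for every pair.

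Per gene length, *Prrx1* was the highest member and *Twist2* the lowest. The mean over the 6 libraries was 66.0 ± 32.5 FPKM (SD, n = 6) for *Prrx1*, which was above 92.4% of the tested genes. *Twist1* was at 22.8 ± 5.36 FPKM and *Snai1* at 22.7 ± 16.3 FPKM (SD, n = 6). *Zeb2* followed at 17.0 ± 2.99 FPKM, *Snai2* at 12.7 ± 3.22 FPKM and *Zeb1* at 10.9 ± 1.86 FPKM (SD, n = 6). These 6 members lay above the tested genes' median of 7.55 FPKM. *Twist2* was at 4.23 ± 1.38 FPKM (SD, n = 6), above 36.0% of the tested genes. Without Ptprz1+/+ replicate 2, *Snai1* was at 16.1 ± 2.65 FPKM (SD, n = 5), below *Zeb2* at 16.6 ± 3.18 FPKM (SD, n = 5), and the rest of the order was as before. *Prrx1* was then at 53.9 ± 15.0 FPKM (SD, n = 5).

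Neighbours in this order were compared library by library with an exact two-sided sign-flip permutation test of the log2 ratio, adjusted over 6 pairs. *Prrx1* was above *Twist1*, *Zeb2* above *Snai2*, and *Zeb1* above *Twist2* in 6 of 6 libraries, each with an exact p = 0.03125, the smallest that 6 libraries allow (adjusted p = 0.0625). None of the 6 pairs passed the threshold of 0.05 after adjustment. *Snai2* was above *Zeb1* in 5 of 6 libraries (exact p = 0.0625, adjusted p = 0.094). *Twist1* and *Snai1* did not differ beyond their spread (mean log2 ratio 0.19 ± 0.92, SD, n = 6, exact p = 0.75), and neither did *Snai1* and *Zeb2* (0.23 ± 0.70, SD, n = 6, exact p = 0.59). The paralogues share sequence, so some reads could be placed on either copy. *Twist1* and *Twist2* transcripts were 87.7% identical over 317 aligned bases, *Snai1* and *Snai2* 79.0% over 338, and *Zeb1* and *Zeb2* 77.7% over 408.

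**Figure D1:**
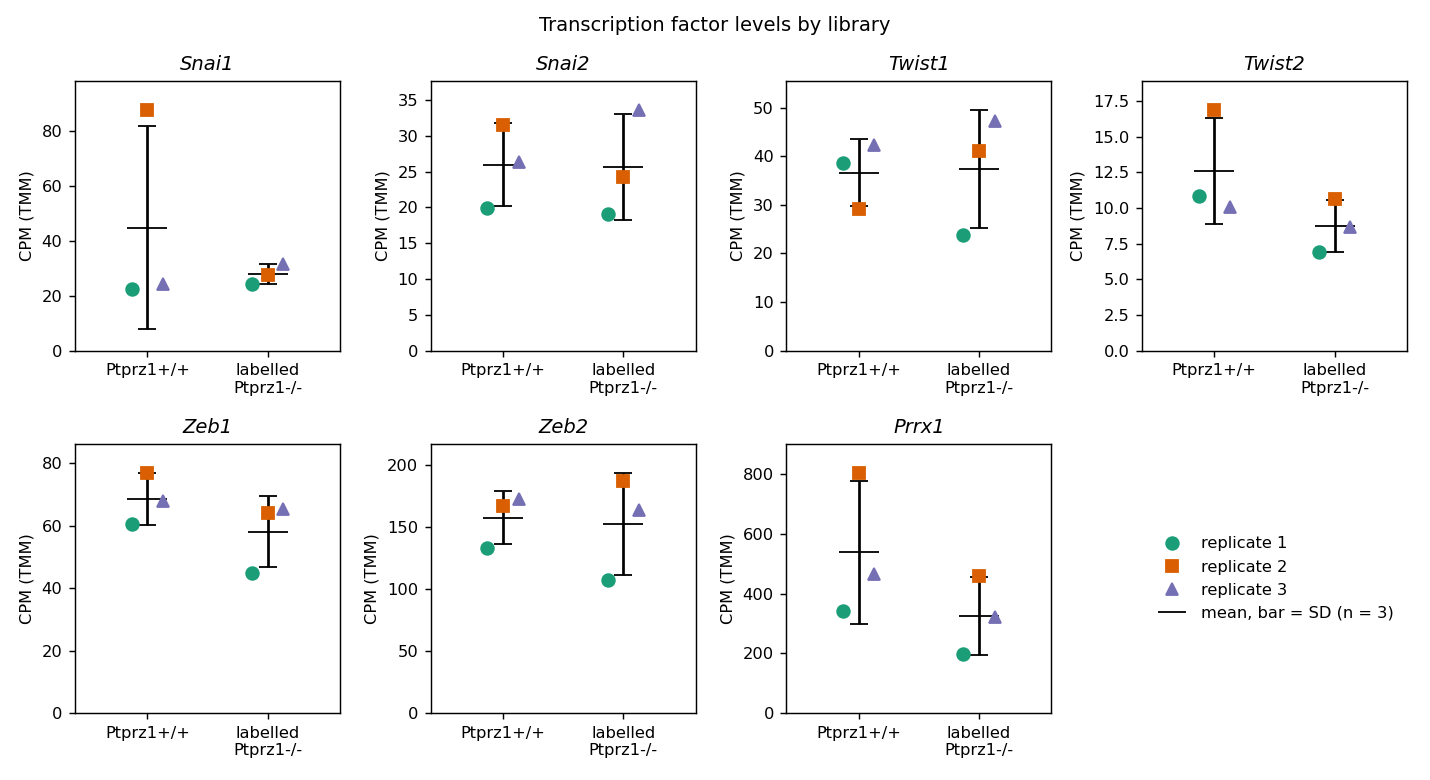
Level of each factor in the 6 libraries, in CPM (counts scaled by the TMM library size), on a linear axis from 0; points are libraries, the wide line is the genotype mean and the bar the SD (n = 3). In each panel the genotypes overlap, and the Ptprz1+/+ replicate 2 library stands far above the others for *Snai1* (87.7 CPM) and *Prrx1* (803.3 CPM).

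Between the genotypes, no factor passed the test, and in every one of the 7 the values of the genotypes overlapped. The fit used the quasi-likelihood test of edgeR, with p adjusted by Benjamini-Hochberg over all tested genes. It called 0 of 7 members, where it called 0% of the 13609 genes. At an unadjusted p under 0.05 it found 0 of 7 members, against 2.69% of the tested genes (366 genes). DESeq2 called 0.22% of genes after adjustment (30 genes), again with 0 members among them, and 3.63% (494 genes) before it. The 3 libraries of a genotype lay wholly on one side of the other 3 for 0 of 7 members and for 7.28% of the tested genes. The log2 fold change, libraries labelled Ptprz1-/- over Ptprz1+/+, was below 0 for 6 of 7 members and for 50.9% of the tested genes. Its median was -0.24 over the members and -0.0047 over the tested genes. Without Ptprz1+/+ replicate 2 and the library labelled Ptprz1-/- replicate 1, it was below 0 for 2 of 7 members, *Twist2* and *Prrx1*. The former was the highest library for 4 of 7 members and the latter the lowest for 6 of 7. A shift upward without them was therefore largely built in, and the count is a description and no test.

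*Prrx1* (ENSMUSG00000026586, chromosome 1 of GRCm38 from 163245119 to 163313710, minus strand) had the largest difference in the fit, still within the spread between unpaired replicates. It had 341.3, 803.3 and 466.4 CPM in Ptprz1+/+ replicates 1, 2 and 3, against 198.8, 457.0 and 321.2 CPM in the libraries labelled Ptprz1-/-, in the same order. All 3 of the latter were below the median Ptprz1+/+ library, and 1 of them lay above the lowest. The log2 fold change was -0.72 (SE 0.42, 95% interval -1.72 to 0.28), with an adjusted p = 1.00 by the quasi-likelihood test of edgeR (Benjamini-Hochberg), as for all 7 members. An exact permutation of the CPM gave p = 0.20, where 3 libraries against 3 cannot go below 0.10. The log2 fold change became -0.31 without Ptprz1+/+ replicate 2, -0.46 without the library labelled Ptprz1-/- replicate 1, and -0.058 without both. Each library labelled Ptprz1-/- was below the Ptprz1+/+ library of the same number, though the labels do not state a pairing. With the replicate number as a block, the edgeR quasi-likelihood test gave -0.71 (SE 0.14, unadjusted p = 0.00482, adjusted p = 0.656).

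*Snai1* (ENSMUSG00000042821, chromosome 2 from 167538195 to 167542814, plus strand), an immediate target of TGF-beta signalling, stood out in a single library. It had 22.4, 87.7 and 24.5 CPM in the Ptprz1+/+ libraries, from 371, 1596 and 388 reads, against 24.4, 27.7 and 31.8 CPM in those labelled Ptprz1-/-. Ptprz1+/+ replicate 2 was far above the other 5 libraries, which lay close together. The log2 fold change of -0.68 (SE 0.54, 95% interval -1.99 to 0.62) rested on that library, since it was 0.25 without it and 0.34 without the library labelled Ptprz1-/- replicate 1 as well (exact permutation p = 0.90 over the 6 libraries).

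*Snai2* (ENSMUSG00000022676, chromosome 16 from 14705852 to 14709395, plus strand), the paralogue also called Slug, moved far less. It had 19.9, 31.5 and 26.4 CPM in the Ptprz1+/+ libraries, against 19.1, 24.2 and 33.6 CPM in those labelled Ptprz1-/-. The 2 genotypes covered nearly the same range. Its log2 fold change was -0.016 (SE 0.26, 95% interval -0.65 to 0.62, exact permutation p = 0.90).

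*Twist1* (ENSMUSG00000035799, chromosome 12 from 33957671 to 33959817, plus strand), a regulator of mesenchyme in the embryo, had 38.6, 29.1 and 42.3 CPM in the Ptprz1+/+ libraries, against 23.9, 41.0 and 47.3 CPM in those labelled Ptprz1-/-. The latter held both the lowest and the highest value. Its log2 fold change was 0.029 (SE 0.28, 95% interval -0.64 to 0.70, exact permutation p = 1.0). *Twist1* was the only member with a value above 0, and it was also the only one for which Ptprz1+/+ replicate 2 was the lowest Ptprz1+/+ library.

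*Twist2* (ENSMUSG00000007805, chromosome 1 from 91801461 to 91848028, plus strand), a paralogue known from dermal fibroblasts, had 10.9, 16.9 and 10.1 CPM in the Ptprz1+/+ libraries, from 180, 307 and 160 reads. It was at 6.95, 10.6 and 8.65 CPM in those labelled Ptprz1-/-, from 112, 155 and 131 reads. The highest of these lay between the lower Ptprz1+/+ libraries, and the other 2 lay below all of them. The difference was -0.53 on the log2 scale (SE 0.28, 95% interval -1.21 to 0.15, exact permutation p = 0.20). It was -0.26 without Ptprz1+/+ replicate 2, and -0.12 without that library and the one labelled Ptprz1-/- replicate 1. *Twist2* shares 1477 of its 3174 exon bases with the antisense gene *Gm29100*, which had 10 to 34 reads per library. The use of strand in counting is not given in the sources used here, so reads of the 2 genes may not be told apart.

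*Zeb1* (ENSMUSG00000024238, chromosome 18 from 5591860 to 5775467, plus strand), a repressor of E-cadherin, had the smallest spread of the members over the 6 libraries. It had 60.5, 77.1 and 68.0 CPM in the Ptprz1+/+ libraries, against 45.1, 64.2 and 65.3 CPM in those labelled Ptprz1-/-. Of the latter, 2 lay within the range of the Ptprz1+/+ libraries and 1 below it. On the log2 scale the difference was -0.24 (SE 0.18, 95% interval -0.68 to 0.21, exact permutation p = 0.40). Without Ptprz1+/+ replicate 2 and the library labelled Ptprz1-/- replicate 1 it was 0.0082. On the opposite strand, *Gm10125* shares 198 exon bases with *Zeb1* and had 5 to 35 reads.

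*Zeb2* (ENSMUSG00000026872, chromosome 2 from 44983634 to 45117395, minus strand), whose product binds SMAD proteins and the same E-boxes, had 133.2, 167.2 and 173.3 CPM in the Ptprz1+/+ libraries. It was at 107.7, 187.7 and 163.9 CPM in those labelled Ptprz1-/-, which again held the lowest and the highest value. Between genotypes the log2 fold change was -0.044 (SE 0.23, 95% interval -0.60 to 0.51, exact permutation p = 0.80). The antisense gene *Zeb2os* shares 653 exon bases with it and had 8 to 19 reads.

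**Figure D2:**
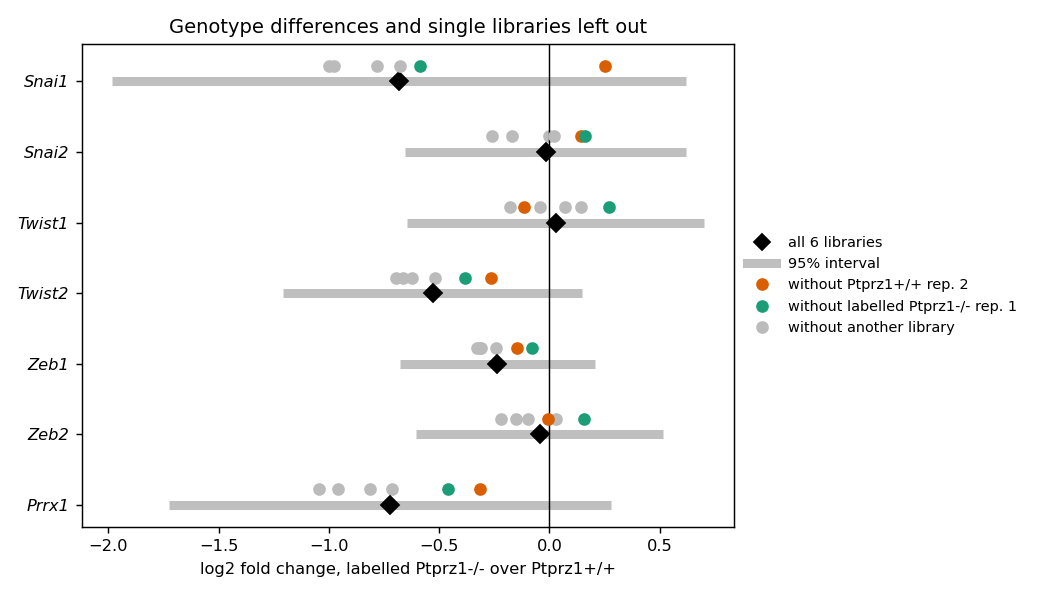
Log2 fold change of each factor, libraries labelled Ptprz1-/- over Ptprz1+/+, with the 95% interval over 6 libraries (grey bar) and, above it, the values with 1 library left out (circles). Every interval crosses 0, and *Snai1* moves from -0.68 to 0.25 without Ptprz1+/+ replicate 2.

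The plot of fold changes shows how far each value moved when a library was left out. Within the genotypes the factors varied unequally. The SD of log2 CPM within a genotype was 0.79 for *Snai1*, above that of 87.1% of the tested genes, and 0.61 for *Prrx1*, above 80.6%. For *Zeb1* it was 0.25, above 41.5% of the genes. The median was 0.37 over the members and 0.29 over the tested genes. Between the highest and the lowest library, CPM differed 4.04-fold for *Prrx1*, 3.91-fold for *Snai1*, 2.43-fold for *Twist2*, and 1.71-fold to 1.98-fold for the other 4 members, against a median of 1.72-fold over the tested genes. The spread of *Snai1* came from a single library. Without Ptprz1+/+ replicate 2 its CPM differed 1.42-fold and its SD was 0.15, above that of 26.8% of the tested genes. *Prrx1* then differed 2.35-fold, with an SD of 0.48, above 77.5%, and *Twist2* 1.57-fold. Without the library labelled Ptprz1-/- replicate 1 instead, the ranges were 3.91-fold for *Snai1*, 2.50-fold for *Prrx1* and 1.95-fold for *Twist2*. Without both libraries they were 1.42-fold, 1.45-fold and 1.26-fold, against a median of 1.43-fold over the tested genes. As these libraries were chosen from the members' own values, a narrower range of the members was largely built in.

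Across the members, the library labelled Ptprz1-/- replicate 1 was the lowest in 6 of 7, all but *Snai1*. It was the lowest in 16.3% of the tested genes. Ptprz1+/+ replicate 2 was the highest for 4 of 7 members, *Snai1*, *Twist2*, *Zeb1* and *Prrx1*, and the highest in 26.9% of the tested genes. The members are few and may not vary independently of each other, so these counts are a description with no test.

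The library in which the factors were lowest was also the one with the most mesothelial RNA. Mesothelial cells line the lung surface, and their 4 markers (*Msln*, *Upk3b*, *Wt1*, *Lrrn4*) summed to 1079 CPM in the library labelled Ptprz1-/- replicate 1 and to between 50.8 and 236.2 CPM in the other 5. All 4 were highest in that library. Ptprz1+/+ replicate 2 had the lowest sum and the lowest value of 3 of the 4. The smooth muscle and pericyte markers did not move as a class. Their sum was highest in the same library (564.8 CPM, against 90.9 to 228.3 CPM in the other 5), but *Des* gave 410.5 CPM of it, and 3 of the 6, *Cspg4*, *Rgs5* and *Notch3*, were at their lowest there. Some fibroblast markers had the pattern of the members. Of 10, 4 were lowest in the library labelled Ptprz1-/- replicate 1 (*Dcn*, *Lum*, *Thy1*, *Fbln1*) and 4 were highest in Ptprz1+/+ replicate 2 (*Pdgfra*, *Dcn*, *Lum*, *Fbln1*). Only *Dcn*, *Lum* and *Fbln1* had both extremes. Another 2 of the 10 went the other way, *Pdgfrb* (464.6 CPM) and *Mfap5* (85.9 CPM), which were at their lowest in Ptprz1+/+ replicate 2. *Dcn*, encoding the matrix proteoglycan decorin, was at 289.7 CPM in the former library and at 1659 CPM in the latter, and *Lum*, encoding lumican, at 10.6 and 129.8 CPM. The collagen genes *Col1a1*, *Col1a2* and *Col3a1*, which dominate the summed level of the list (11934 to 28134 CPM), were not lowest or highest in these libraries. The part of any of these cells in the members' levels was not tested. Of 6 leukocyte markers, which summed to 24.8 to 70.2 CPM, *Ptprc* reached at most 0.558 CPM and *Adgre1* at most 0.440 CPM. The others were higher, with *Lyz2* at 6.25 to 40.1 CPM and *Cd14* at 10.8 to 21.5 CPM. *Cd68* was at 1.51 to 5.99 CPM and *Csf1r* at 1.55 to 5.24 CPM. The 6 epithelial markers summed to 0.961 to 3.72 CPM, and 4 of them were at 0 in at least 1 library.

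**Figure D3:**
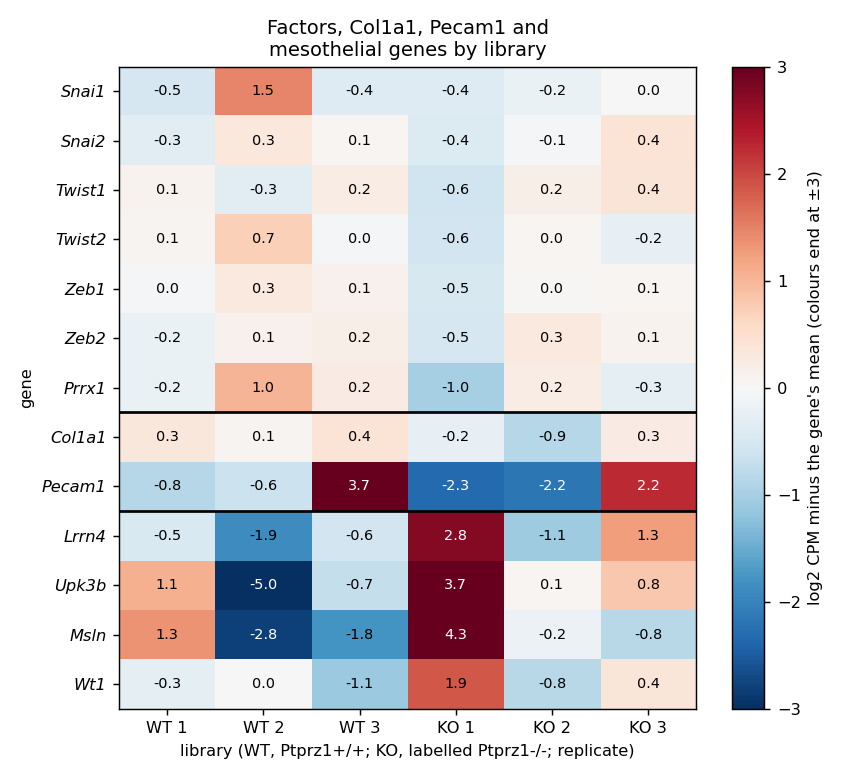
Log2 CPM of the 7 factors, of *Col1a1* and *Pecam1*, and of the 4 mesothelial markers, each minus the gene's own mean over the 6 libraries; red is above that mean, blue below it, and colours end at 3 on either side. The Ptprz1-/- replicate 1 column is blue for all 7 factors and red for the 4 mesothelial genes, while *Pecam1* is red in the replicate 3 libraries.

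*Pecam1* followed another pattern than the factors. It had 3.81, 4.40 and 91.0 CPM in the Ptprz1+/+ libraries, against 1.36, 1.51 and 32.4 CPM in those labelled Ptprz1-/-. The replicate 3 library of each genotype was far above the other 4, a 66.7-fold difference between the highest and the lowest library, and the 16 endothelial markers together followed it (641.7 and 215.1 CPM against 26.4 to 41.9 CPM). The factors were not the lowest in either of these 2 libraries. Summed over the 7 members, the level was 126.7, 255.8 and 155.1 FPKM in the Ptprz1+/+ libraries and 95.1, 151.4 and 153.8 FPKM in those labelled Ptprz1-/-. Because 2 libraries stood apart from 4 in *Pecam1*, no correlation with it is given.

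Per gene length, all 7 factors were above *Pecam1* in 4 of the 6 libraries, Ptprz1+/+ replicates 1 and 2 and the libraries labelled Ptprz1-/- replicates 1 and 2. In Ptprz1+/+ replicate 3, only *Prrx1* (69.1 FPKM) was above *Pecam1* (25.6 FPKM), with *Twist1* next to it at 25.3 FPKM. In the library labelled Ptprz1-/- replicate 3, 6 of 7 were above *Pecam1* (9.84 FPKM), and *Twist2* was below it at 3.58 FPKM. Counted against *Pecam1*, there were between 5.12 *Prrx1* reads per *Pecam1* read in Ptprz1+/+ replicate 3 and 302.6 in the library labelled Ptprz1-/- replicate 2. For *Snai1* the ratio ran from 0.269 to 19.95 reads, and for *Twist2* from 0.111 to 7.05. The lowest ratio of each of the 7 members was in Ptprz1+/+ replicate 3, the library with the most *Pecam1*. Between libraries *Pecam1* differed 66.7-fold and *Prrx1*, the widest member, 4.04-fold, so these ratios mostly track *Pecam1*.

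**Figure D4:**
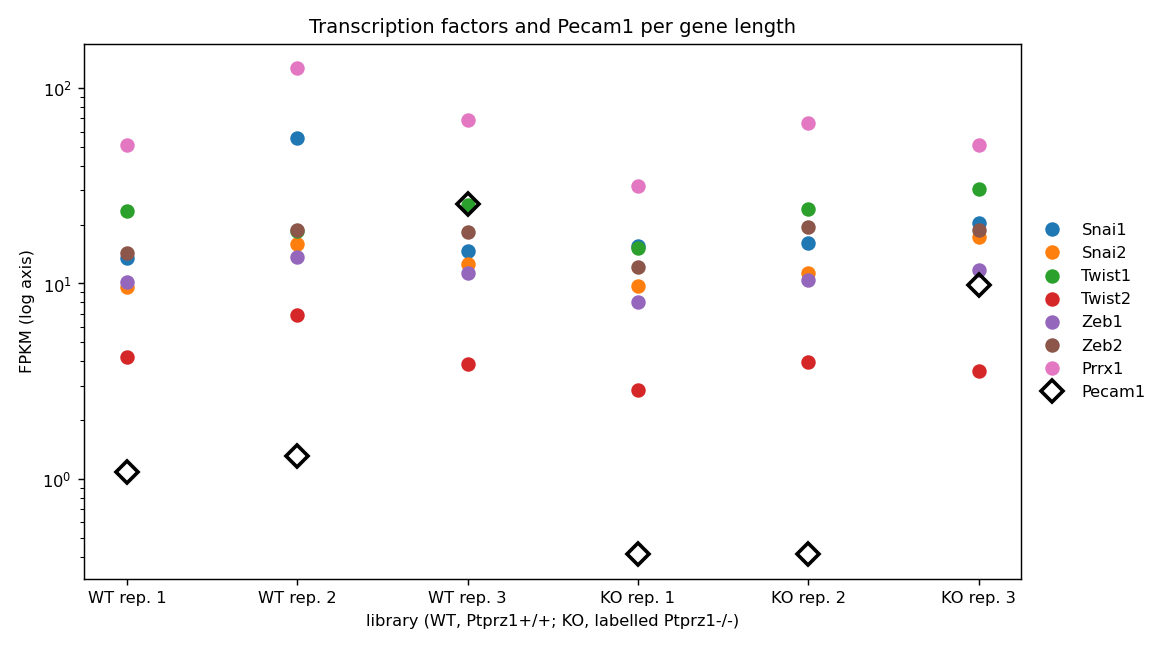
FPKM of the 7 factors and of *Pecam1* in each library, on a log axis. *Pecam1* lies below all 7 factors in 4 libraries and rises to 25.6 FPKM in Ptprz1+/+ replicate 3 and to 9.84 FPKM in the library labelled Ptprz1-/- replicate 3, while the factors stay between 2.84 FPKM (*Twist2*) and 126.4 FPKM (*Prrx1*).

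*Col1a1* was abundant in every library, with 5709, 4807 and 5992 CPM in the Ptprz1+/+ libraries, against 3792, 2494 and 5377 CPM in those labelled Ptprz1-/-. The factors were also expressed per 1000 *Col1a1* reads. *Prrx1* had 59.8, 167.1 and 77.8 reads per 1000 *Col1a1* reads in the Ptprz1+/+ libraries and 52.4, 183.2 and 59.7 in those labelled Ptprz1-/-. *Zeb2* had 23.3, 34.8 and 28.9 reads in the former and 28.4, 75.3 and 30.5 in the latter. The library labelled Ptprz1-/- replicate 2, which had the least *Col1a1*, was the highest for 6 of 7 members. *Snai1* was highest in Ptprz1+/+ replicate 2, at 18.3 reads. No member's ratio differed between the genotypes beyond the spread (exact permutation p from 0.30 for *Snai2* and *Twist1* to 1.0 for *Snai1*, and adjusted p of at least 0.875 over the 7 members).

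Correlations of log2 CPM over the 6 libraries were computed for 28 relations, each member with *Col1a1* and the 21 pairs of members. None passed 0.05 after Benjamini-Hochberg adjustment over the 28, where the lowest adjusted p was 0.282 for Pearson's r and 0.544 for Spearman's rho by exact permutation. The 3 libraries of a genotype are too few for values within it. No r with *Col1a1* or another member is given for *Snai1*, in which a single library stood apart from the other 5.

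With *Col1a1*, the other 6 members had an r between -0.12 (*Zeb2*, rho = -0.086, exact permutation p = 0.842 for r and 0.919 for rho) and 0.26 (*Zeb1*, rho = 0.31, exact permutation p = 0.557 for r and 0.564 for rho). These values did not hold without the 2 libraries farthest from the median of *Col1a1*, those labelled Ptprz1-/- replicates 1 and 2. Over the remaining 4, r was -0.71 for *Zeb1*, -0.73 for *Twist2*, -0.65 for *Prrx1*, -0.58 for *Snai2*, -0.20 for *Zeb2* and 0.70 for *Twist1*.

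Among the members other than *Snai1*, r was positive in 15 of 15 pairs over the 6 libraries and without Ptprz1+/+ replicate 2, and in 10 of 15 without the 2 libraries farthest from the median of the first gene. The library labelled Ptprz1-/- replicate 1 was the lowest for each of these members, which by itself draws r upward. Neither a count without that library alone nor the share of positive r over all gene pairs was computed, so these counts are a description. *Twist2* and *Prrx1* had the highest r, 0.95 (exact permutation p = 0.0181, adjusted p = 0.282), with a rho of 0.77 (exact permutation p = 0.103, adjusted p = 0.576). It fell to 0.47 without Ptprz1+/+ replicate 2 and the library labelled Ptprz1-/- replicate 1, so it rested on those libraries in part. *Zeb1* and *Prrx1* had an r of 0.92 (exact permutation p = 0.0208, rho = 0.83 with p = 0.0583), which became 0.52 without the same libraries. The paralogues *Zeb1* and *Zeb2* had an r of 0.85 (exact permutation p = 0.0403, rho = 0.60 with p = 0.242), and 0.72 without them. *Snai2* and *Zeb1* had an r of 0.77 (exact permutation p = 0.0403, rho = 0.83 with p = 0.0583) which became 0.98 once the Ptprz1-/- replicates 1 and 3 were left out. The paralogues *Twist1* and *Twist2* had an r of 0.033 (exact permutation p = 0.961, rho = -0.14 with p = 0.803), -0.98 without the 2 farthest libraries and 0.71 without Ptprz1+/+ replicate 2 alone. All pairs share the same 6 libraries.

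Many other genes had patterns as close to a member as the members had to each other. Likeness was measured as Pearson's r of log2 CPM over the 6 libraries among the 10649 genes with a mean of at least 5 CPM, as a description. By r to *Twist2*, *Prrx1* ranked 54, and by r to *Prrx1*, *Twist2* ranked 60 and *Zeb1* 125. The genes most like *Prrx1* were *Irak3*, *Pde7b* and *Fam117a*, with an r of at least 0.991. Those most like *Snai1* were *Rad21*, *Sf3a1* and *Etaa1* (r of at least 0.993), and 141 genes, 1.32%, reached an r of 0.95 with it. Because Ptprz1+/+ replicate 2 stood apart in *Snai1*, an r with *Snai1* rests largely on that library and does not show a pattern shared over the others. Genes like *Zeb1* included *Nin* (r = 0.991) and *Cnpy4*, and *Zeb2* was most like *Sun2* (r = 0.997), *Tnfaip2* and *Reep3*. *Snai2* was most like *Iglon5* (r = 0.998), *Tmem175* and *C330006A16Rik*, *Twist1* most like *Med13* (r = 0.995), *Stk3* and *Srr*, and *Twist2* most like *Wdr61* (r = 0.992), *Cand1* and *Vps18*. No gene was named for 2 members.

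For the signals that set off the transition, the list held ligands, receptors and Smad genes, *Smad7* among them. Of these, 15 of 15 were tested and 0 were called after Benjamini-Hochberg adjustment in the quasi-likelihood test of edgeR. At an unadjusted p under 0.05 there were 0, and the median log2 fold change was -0.12. The most abundant per length were the TGF-beta receptor genes *Tgfbr2* (82.7 FPKM) and *Tgfbr3* (60.8 FPKM). *Tgfbr3*, the co-receptor betaglycan, had 259.9, 621.6 and 386.8 CPM in the Ptprz1+/+ libraries, against 183.5, 383.9 and 385.5 CPM in those labelled Ptprz1-/-. As with *Prrx1*, the highest value was in Ptprz1+/+ replicate 2 and the lowest in the library labelled Ptprz1-/- replicate 1. *Bmp2*, a ligand that starts valve formation, had the lowest fold change of the list, -1.59 (SE 1.29). It was at 33.8 CPM in Ptprz1+/+ replicate 2, the library with the most *Snai1*, and at 0.806 to 11.6 CPM in the other 5. *Bmp4* had the highest, 0.61 (SE 0.84), and was at 6.38 CPM in Ptprz1+/+ replicate 2, its lowest value.

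Most of the mesenchymal genes were abundant. *Postn*, with a mean of 5.20 FPKM, lay below the tested genes' median of 7.55 FPKM, and *Cnn1* fell to 3.79 CPM in Ptprz1+/+ replicate 3. All 16 were tested, 0 were called, and 2 were lower in the libraries labelled Ptprz1-/- at an unadjusted p under 0.05, against 1.56% of the tested genes in that direction. None were higher at that level, against 1.13% of the tested genes. These were *Cdh2* (N-cadherin), at 218.3, 210.9 and 308.2 CPM in Ptprz1+/+ against 144.8, 138.8 and 166.5 CPM, a log2 fold change of -0.71 (SE 0.19), and the matrix gene *Postn* (-0.95, SE 0.28). In edgeR's quasi-likelihood test both had an adjusted p of 1.00 after Benjamini-Hochberg adjustment. The genotypes did not overlap for 3 of the 16, *Cdh2*, *Postn* and *Ctgf*, against 7.28% of the tested genes, the last higher in the libraries labelled Ptprz1-/- (194.5, 48.5 and 154.8 against 318.9, 412.2 and 197.8 CPM). The median of the list was -0.13. Per length, *Sparc* (1476 FPKM) and *Col3a1* (1426 FPKM) were highest, and *Tnc* had the lowest log2 fold change, -0.998 (SE 0.58).

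Endothelial genes, which are lost in the transition, gave no call among the 14 of 16 that passed the filter, and 0 at an unadjusted p under 0.05. All 14 had a log2 fold change below 0, against 50.9% of the tested genes, with a median of -1.42 against -0.0047. The values of the genotypes lay apart for 0 of the 14, against 7.28% of the tested genes. In 13 of the 14 the replicate 3 library was the highest of each genotype, all but *Esam*. Ptprz1+/+ replicate 3 was the highest of the 6 libraries for all 16 genes, and the size of these fold changes rests largely on it. The 16 summed to 41.3, 41.9 and 641.7 CPM in the Ptprz1+/+ libraries, against 31.2, 26.4 and 215.1 CPM in those labelled Ptprz1-/-. The genes varied together, so the 14 are not independent, and no fold changes without that library are given for this list. *Cdh5*, encoding VE-cadherin, was at 198.8 CPM in Ptprz1+/+ replicate 3 and at 61.3 CPM in the library labelled Ptprz1-/- replicate 3, and at 3.60 to 14.3 CPM in the other 4. *Vwf* had the lowest log2 fold change (-2.67, SE 1.29), with 23.8 CPM in Ptprz1+/+ replicate 3 and at most 2.25 CPM in the other 5, and *Esam* the highest (-0.53, SE 1.23).

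Of the factors' partners and relatives, 17 of 18 were tested, with 0 calls, 0 at an unadjusted p under 0.05 and a median log2 fold change of 0.10. The exception was *Snai3*, the third Snail gene, which reached at most 0.181 CPM and was at 0 in at least 1 library. The co-repressor gene *Ctbp1*, through which Zeb proteins act, was steady at 169.7 to 206.5 CPM. The genotypes did not overlap for 2 of the 17, a count near the 7.28% of the tested genes. These were *Ctbp2* and the histone deacetylase gene *Hdac2*, both lower in the libraries labelled Ptprz1-/-, by -0.20 (SE 0.12) and -0.19 (SE 0.11) on the log2 scale. The Id proteins hold the partners of Twist away from DNA. Among them *Id3* was the most abundant per length (182.4 FPKM), while *Id1* had the highest log2 fold change of the list, 0.79 (SE 0.36), and *Id4* the lowest, -0.71 (SE 0.82).

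Epithelial genes of the opposite programme were mostly at or near 0. The list held 5 factors that oppose Snail and Zeb proteins and the adhesion genes *Cdh1* and *Epcam*, which are also among the 6 epithelial markers above. Of the 7 genes, 5 were at 0 in at least 1 library, *Cdh1*, *Epcam*, *Ovol2*, *Grhl2* and *Esrp1*, and only the splicing factor gene *Esrp2* passed the filter, at 1.98 to 16.7 CPM. It was highest in Ptprz1+/+ replicate 1 (13.8 CPM) and the library labelled Ptprz1-/- replicate 1 (16.7 CPM), with a log2 fold change of 0.43 (SE 0.87). *Ovol1*, a repressor of *Zeb1* in epithelia, reached 0.820 CPM.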

How the data were processed

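RNA of 3 Ptprz1+/+ and 3 Ptprz1-/- isolations was analysed, with groups and replicate numbers from the sample labels. The authors deposited whole-number counts of reads per gene, not normalized, and FPKM values, which the same counts, gene lengths and library totals return. The submitters' processing notes name STAR, HTSeq, TopHat, DESeq2, edgeR, GRCm38 and mm10, without role or version. The deposited fold changes and p-values of the authors' own comparison, and their lists of called genes, were not used.

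Counts were scaled by TMM and filtered with filterByExpr. The quasi-likelihood test of edgeR 4.0.16 (R 4.3.3) had genotype as its single term, with Benjamini-Hochberg adjustment over 13609 genes and a threshold of 0.05. The functions were also run on data simulated from the means and dispersions of these counts, with results not reported here. Standard errors were derived from the log2 fold change and the square root of F. CPM use the TMM-scaled library size, and log2 CPM for correlations a prior count of 2. Replicates are separate isolations. Single values were compared with exact two-sided permutation tests in scipy 1.17.1. Transcripts of GENCODE mouse release 21 were aligned with minimap2 2.31, keeping hits of at least 100 bases. Promoters came from RefSeq on GRCm38.p6.

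The members, the gene lists and the marker lists were chosen with earlier results of these data known. Named were all members, *Pecam1*, *Col1a1* and *Ptprz1*; from each list the genes called, the 2 with the highest FPKM and those with the lowest and highest log2 fold change; and per member the 3 genes most alike. Where fewer are given, the rest is not reported here. *Cdh2*, *Postn*, *Ctbp2*, *Hdac2*, *Snai3*, the contractile genes and single marker genes were named after their values were seen. Depth was 14496881 to 17709663 counts per library, and members had 112 reads or more, so the spread between isolations limits precision. Alternatives were DESeq2 1.42.0, upper-quartile scaling, library totals alone, no filter, at least 10 counts in every library, each library left out, and the replicate number as a block. Leaving out the 2 libraries that stand apart, singly or together, for levels, spread and differences was added after seeing the data.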

Additional observations from a re-analysis of the deposited data

How the results depend on the processing

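The count of genes called stayed at 0 under every edgeR alternative, with 312 to 690 genes at an unadjusted p under 0.05, and was 30 with DESeq2, with 0 members among them. No member passed an adjusted 0.05 in any of its 13 alternatives. *Twist2* and *Prrx1* kept a log2 fold change below 0 in all 13. With each library left out in turn, values ran from -1.001 to 0.25 for *Snai1*, -0.26 to 0.16 for *Snai2*, -0.18 to 0.27 for *Twist1*, -0.69 to -0.26 for *Twist2*, -0.33 to -0.078 for *Zeb1*, -0.22 to 0.16 for *Zeb2* and -1.05 to -0.31 for *Prrx1*. Direction turned without Ptprz1+/+ replicate 2 for *Snai1* (0.25), *Snai2* (0.15) and *Twist1* (-0.11), without Ptprz1+/+ replicate 3 for *Zeb2* (0.028), without the library labelled Ptprz1-/- replicate 1 for *Snai2* (0.16) and *Zeb2* (0.16), without replicate 2 of that genotype for *Snai2* (0.023) and *Twist1* (-0.043), and without its replicate 3 for *Twist1* (-0.18). Without both libraries that stand apart, chosen after seeing the data, it turned for *Snai1* (0.34), *Snai2* (0.32), *Zeb1* (0.0082) and *Zeb2* (0.19). With library totals alone *Snai2* was at 0.0054. Same-numbered libraries correlated in their deviations from the genotype means at 0.446, -0.061 and 0.523, and different-numbered ones at -0.568 to 0.092. Numbers 1 and 3 correlated best with their own number and number 2 did not, a hint from the data and not from the design, so pairing by number was not used. With the replicate number as a block, 0 genes were called (690 unadjusted), *Twist1* was at -0.0074, and *Prrx1* was at -0.71 (Benjamini-Hochberg adjusted p = 0.656 in the quasi-likelihood test of edgeR, unadjusted 0.00482). On the log2 scale the exact permutation p of *Twist1* was 1.00, with its direction turned. Correlations turned sign for *Twist1* with *Twist2* (-0.16 on linear CPM, -0.027 with library totals alone, -0.98 without the 2 farthest libraries), for *Col1a1* with *Snai2* (-0.58), *Twist2* (-0.73), *Zeb1* (-0.71) and *Prrx1* (-0.65) without the 2 farthest libraries, and for *Prrx1* with *Col1a1* without Ptprz1+/+ replicate 2 (-0.0022). The causes were not tested.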

Other observations

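Contractile genes, which mark myofibroblasts and smooth muscle, had another pattern over the libraries than the transcription factors. *Acta2*, encoding smooth muscle actin, had 2157, 145.0 and 702.7 CPM in Ptprz1+/+ replicates 1, 2 and 3, against 1636, 332.1 and 366.8 CPM in the libraries labelled Ptprz1-/-, in the same order. *Tagln*, encoding the actin-binding protein transgelin, was at 1349, 166.0 and 447.7 CPM in the former and at 1875, 395.9 and 379.5 CPM in the latter. *Cnn1*, encoding calponin, was at 73.9, 10.1 and 3.79 CPM and at 84.8, 15.9 and 6.21 CPM. The replicate 1 libraries were the highest of each genotype for all 3 genes. Ptprz1+/+ replicate 2, in which *Snai1* and *Prrx1* were highest, was the lowest of the 6 libraries for *Acta2* and *Tagln*. The log2 fold changes between genotypes were -0.36 (SE 1.03), 0.43 (SE 0.92) and 0.29 (SE 1.29), each within the spread between replicates.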
